A study of Mus musculus with 9 samples.

Results

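Sfi1 is a protein-coding mouse gene of 71.498 kb on chromosome 11 (chr11:3131850-3203347, mm10), and it carried a dense run of high H3R2me2a peaks in every library examined. The gene was selected on the number, spacing, width and height of its peaks in these lists, so those quantities are a description here and carry no test against the rest of the genome. All peaks inside the gene and the 100 kb on either side were taken from the lists of 6 libraries. They numbered 338 of the 1541235 peaks that the lists hold on chromosomes 1 to 19 and X, and 1 gene is described of the 21631 protein-coding genes on those chromosomes. The remainder of chr11:3000001-6000000, with 1385 peaks in the 6 lists, served as the comparison.

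SFI1 is a centrin-binding protein. In budding yeast its counterpart runs along the bridge of the spindle pole body and carries a row of centrins, the small calcium-binding proteins of microtubule-organizing centres, and in vertebrate cells the protein sits with centrin on centrioles. H3R2me2a, the asymmetric dimethylation of arginine 2 on histone H3, is deposited by the arginine methyltransferase PRMT6 and counteracts the trimethylation of the neighbouring lysine 4, a mark of active promoters. IGF2BP2 is an RNA-binding protein that recognises m6A-modified transcripts.

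Chromatin immunoprecipitation with sequencing (ChIP-seq) used an H3R2me2a antibody on cells from mouse bone marrow, described as leukemia cells in the design text of the series. The groups were cells without Prmt6 (Prmt6KO, 2 libraries), cells without Igf2bp2 (Igf2bp2KO, 2 libraries) and wild-type cells (WT, 2 libraries), and all were grown in medium with the cytokines IL-3, IL-6 and SCF. The labels give neither strain, age nor sex, nor how the knockouts or the leukemia were made, and they leave unstated whether both libraries of a group had their own animal or culture. The p-values below therefore measure only the spread between these libraries, which may be technical. The 3 input libraries were not analysed here, and a peak list does not show whether a gene was deleted. The part of repeated sequence, or of reads with several matches, in the peaks at Sfi1 itself was not tested. A listed peak is thus not shown here to measure the mark.

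The lists differed greatly in length and in the height at which they start. The Prmt6KO lists held 812414 and 430225 peaks, the Igf2bp2KO lists 961 and 1221, and the WT lists 162454 and 133960. The genome-wide background that each list carries, the only measure of depth in the files, was 0.736 and 1.21 fragments in Prmt6KO, 1.45 and 1.33 in Igf2bp2KO, and 1.46 and 1.44 in WT. The lowest peak listed reached 2.72 and 2.48 times that background in Prmt6KO, 5.51 and 5.25 times in Igf2bp2KO, and 2.74 and 2.78 times in WT. Peaks below those heights are absent from the Igf2bp2KO lists, so peaks are compared here mainly above the start of every list. Whether the Igf2bp2KO lists are complete from 6 times the background upward was not tested. In Sfi1 their lowest peaks lay at 6.89 and 6.75 times, against 4.11 and 4.17 times in WT. Counts and cover of high peaks in Igf2bp2KO may therefore be too low beside the other groups. A high peak means one whose summit is at least 6 times the background of its own library. WT replicate 1 stood apart in having 1.25% of its peaks on the X chromosome, against 5.10% to 7.94% in the other 5 libraries, and Prmt6KO replicate 1 in its low background and long list. Where leaving out either of them changes a value by much, this is said beside the value.

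Sfi1 was filled with peaks in all 3 genotypes. It held 43 and 39 peaks in Prmt6KO, 32 and 27 in Igf2bp2KO, and 41 and 38 in WT. These amount to 60.1 and 54.5 peaks per 100 kb in Prmt6KO, 44.8 and 37.8 in Igf2bp2KO, and 57.3 and 53.1 in WT. The rest of the 3 Mb window had 31.4 and 11.3 peaks per 100 kb in Prmt6KO, none in either Igf2bp2KO library, and 5.02 and 3.01 in WT. Every peak that the Igf2bp2KO lists hold in that window, 37 and 32, lay in Sfi1 or just below it. The gene was denser than the rest of the window by 1.91 and 4.83 times in Prmt6KO and by 11.4 and 17.7 times in WT. In Igf2bp2KO the ratio was at least 407 and at least 343, computed against a floor of 3 peaks per library in the rest of the window. The Igf2bp2KO lists leave out low peaks, so their ratios are not on the scale of the other lists. For high peaks alone the ratio was 18.8 and 369 in Prmt6KO, 649 and 1221 in WT, and unchanged in Igf2bp2KO. Those ratios rest on 59 and 3 high peaks in the rest of the window in Prmt6KO and 2 and 1 in WT.

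**Figure D1:**
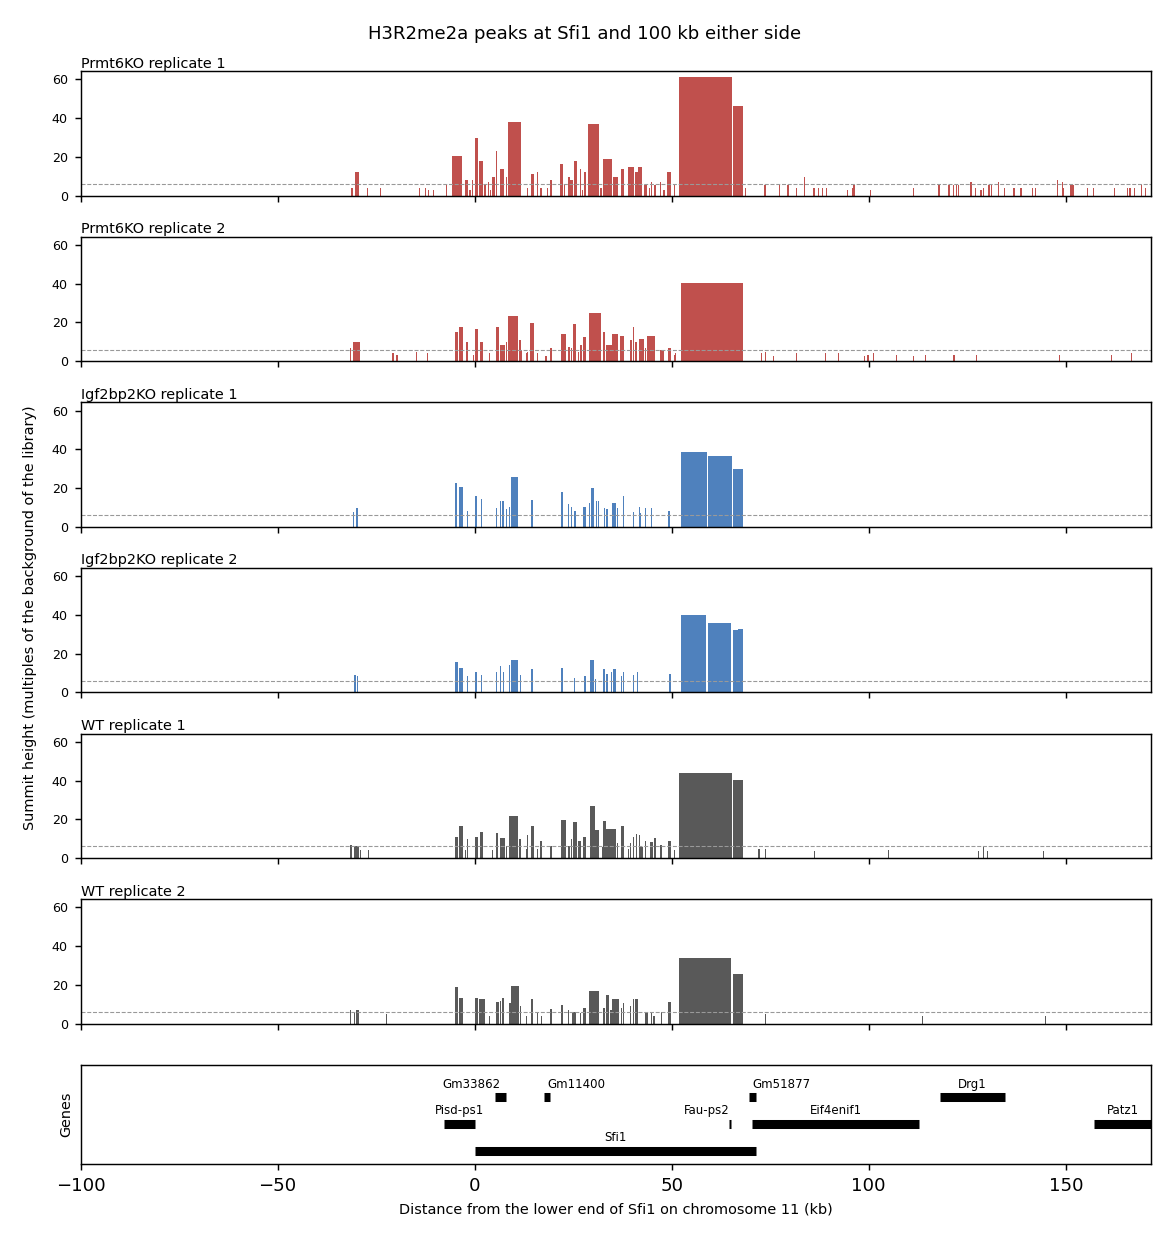
Peaks at Sfi1 and 100 kb either side in the 6 libraries. The horizontal axis is the distance from the lower end of the gene in kb, each bar is a peak as wide as the peak itself (drawn at least 0.25 kb wide), its height is the summit in multiples of the background of that library, the dashed line marks 6 times the background, and genes are drawn at the bottom. Tall peaks start just below Sfi1 in Pisd-ps1, run through the gene, and stop in every library a little before its upper end, after a block of more than 15 kb whose summit reaches 61.1 and 40.5 times the background in Prmt6KO, 38.6 and 39.7 times in Igf2bp2KO, and 43.8 and 34.1 times in WT.

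The peaks at Sfi1 were also far higher than those around it. High peaks in the gene numbered 29 and 29 in Prmt6KO, 32 and 27 in Igf2bp2KO, and 34 and 32 in WT. They made up 67.4% and 74.4% of the gene's peaks in Prmt6KO, where 7.29% and 1.34% of all peaks in the lists are high. They made up 100% in both Igf2bp2KO libraries, where 99.5% and 90.7% of the lists are high because low peaks are not listed, and 82.9% and 84.2% in WT, where 3.05% and 2.03% are high. By the authors' q, taken at 0.05 or below, 55.8% and 74.4% of the gene's peaks passed in Prmt6KO (0.497% and 1.34% of all listed peaks), 25% and 22.2% in Igf2bp2KO (10.9% and 7.62%), and 82.9% and 84.2% in WT (3.05% and 2.03%). The remainder of the window had 59 and 3 high peaks in Prmt6KO, 0 and 0 in Igf2bp2KO, and 2 and 1 in WT. Sfi1 with its flanks thus held 39.2% and 91.9% of the window's high peaks in Prmt6KO, 100% in both Igf2bp2KO libraries, and 95.2% and 97.3% in WT. The low share in Prmt6KO replicate 1 went with its low background, at which a peak in Sfi1 counted as high from 5 fragments, against 8 to 10 fragments for the lowest high peak of the gene in the other 5 libraries, and its part in the share was not tested.

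In fragments, the median summit in Sfi1 was 7 and 12 in Prmt6KO, 17.5 and 14 in Igf2bp2KO, and 15 and 13 in WT. Outside, in the rest of the window, the median was 3 and 4 fragments in Prmt6KO and 6 and 5 in WT, and no summit exceeded 8 and 9 fragments in Prmt6KO or 9 and 9 in WT. The highest summit of the gene held 45 and 49 fragments in Prmt6KO, 56 and 53 in Igf2bp2KO, and 64 and 49 in WT. In the lower flank, which is not part of that rest, the highest summit had 15 and 21 fragments in Prmt6KO, 33 and 21 in Igf2bp2KO, and 24 and 27 in WT, so the highest summit of the gene stood above both the flank and the rest of the window in every library. The highest peak ranked between 15 and 23 by fragments within its whole list in all 6 libraries.

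**Figure D2:**
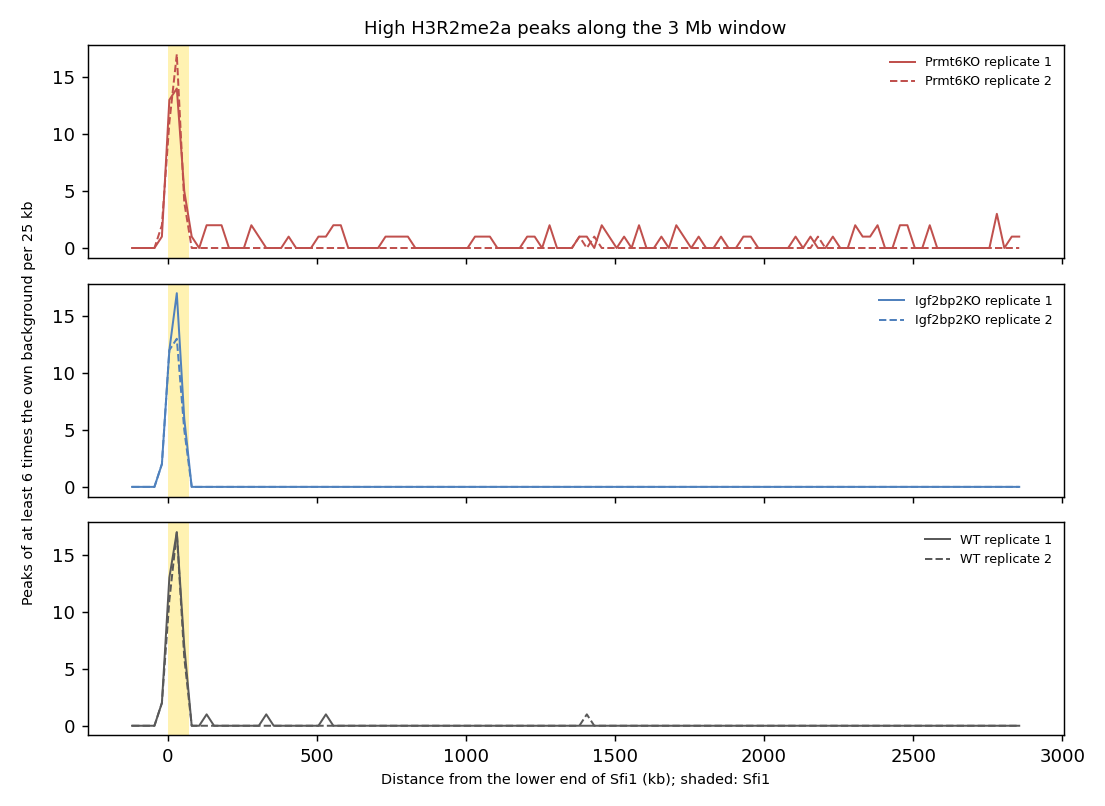
High peaks along the 3 Mb window at the start of chromosome 11. The horizontal axis is the distance from the lower end of Sfi1 in kb, the vertical axis is the number of peaks of at least 6 times the own background per 25 kb, solid and dashed lines are replicates 1 and 2, and the shaded strip is Sfi1. The rest of the window holds 59 and 3 such peaks in Prmt6KO, 0 and 0 in Igf2bp2KO, and 2 and 1 in WT, while Sfi1 and its flanks hold 38 and 34 in Prmt6KO, 37 and 32 in Igf2bp2KO, and 40 and 36 in WT.

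Peaks in Sfi1 were wide and close together. Their median width was 565 and 605 bp in Prmt6KO, 345.5 and 362 bp in Igf2bp2KO, and 529 and 485 bp in WT. In the rest of the window the median was 200 and 200 bp in Prmt6KO and 214 and 212.5 bp in WT, at or near the 200 bp of the narrowest peaks there, and there was no peak to measure in Igf2bp2KO. Neighbouring summits in the gene lay 1135.5 and 1325 bp apart at the median in Prmt6KO, 1323 and 1710.5 bp in Igf2bp2KO, and 1185 and 1360 bp in WT. In the rest of the window they lay 2304 and 5763 bp apart in Prmt6KO and 10538 and 20070 bp apart in WT. Peaks of at least 1000 bp, which made up 0.207% and 0.236% of the lists in Prmt6KO, 4.16% and 5.16% in Igf2bp2KO, and 0.305% and 0.365% in WT, numbered 8 and 9 in Sfi1 in Prmt6KO, 4 and 6 in Igf2bp2KO, and 7 and 6 in WT.

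Together the peaks covered 63.5% and 62.7% of the gene in Prmt6KO, 38.3% and 35.6% in Igf2bp2KO, and 58.9% and 52.4% in WT. The lower cover in Igf2bp2KO goes with the higher starting height of those lists, and its part in the difference was not tested. High peaks alone covered 56.6% and 58.1% of Sfi1 in Prmt6KO, 38.3% and 35.6% in Igf2bp2KO, and 55.9% and 50.2% in WT. Both Igf2bp2KO libraries lay below all 4 others on either measure, and both Prmt6KO libraries lay above both WT libraries. The starting height of a list may also bear on the width of its high peaks, and this was not tested.

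**Figure D3:**
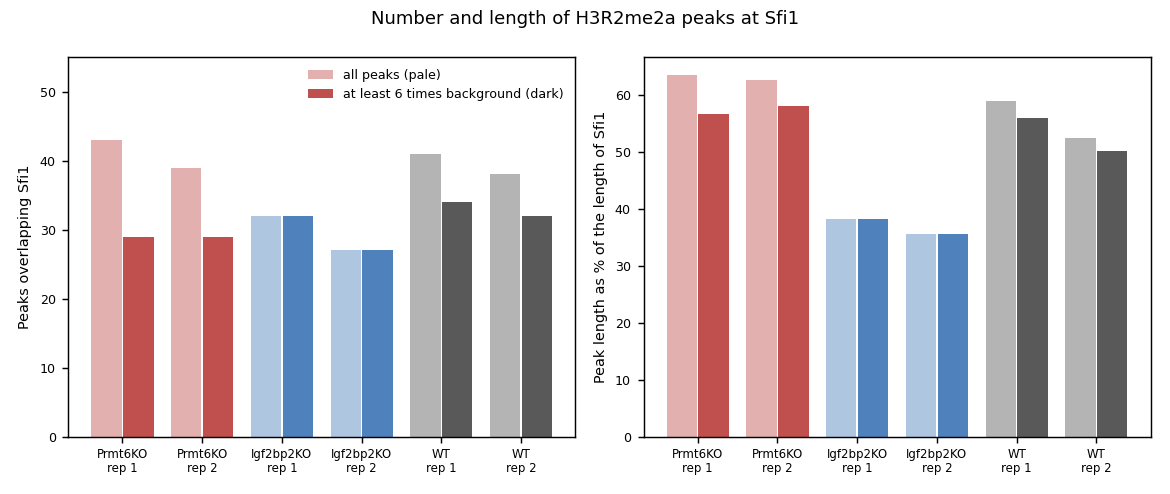
Number and length of peaks in Sfi1 by library. The left panel gives the number of peaks overlapping the gene and the right panel the share of the gene's length they cover in percent, with pale bars for all listed peaks and dark bars for peaks of at least 6 times the own background. Dark bars on the left run from 27 to 34 over the 3 genotypes, and on the right they are 56.6% and 58.1% in Prmt6KO, 38.3% and 35.6% in Igf2bp2KO, and 55.9% and 50.2% in WT.

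The number of high peaks and the highest summit were compared between genotypes, although with 2 libraries each no test could have passed a threshold of 0.05. For Prmt6KO against WT, the number of high peaks in Sfi1 differed by -0.18 ± 0.0431 on the log2 scale (SE, n = 2 each), with both Prmt6KO counts below both WT counts. The two-sided exact permutation p was 0.333, the smallest that 6 splits of 2 against 2 libraries allow. For Igf2bp2KO against WT the difference was -0.16 ± 0.128 (SE, n = 2 each, exact permutation p = 0.667), and the groups met at 32. Counting all listed peaks turned the Prmt6KO difference to 0.05, and dividing each count by all high peaks of its list made it -2.52. For Igf2bp2KO that division gave 1.67, while counting peaks with a q of 0.05 or below gave -2.17. Counting peaks with a fold enrichment of at least 4 gave -1.18. The lowest peak of Sfi1 that passed the q lay at 15.8 and 16.5 times the background in Igf2bp2KO, against 6.16 and 6.26 in WT. Counts by q are therefore not taken at a like height in the 2 groups. The size and direction of both differences depended on how peaks were counted. In such bulk lists, fewer cells with the mark and less of the mark per cell cannot be told apart.

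The highest summit, in multiples of the background, differed by 0.37 ± 0.347 on the log2 scale for Prmt6KO against WT (SE, n = 2 each, exact permutation p = 0.667). The groups overlapped, with 61.1 and 40.5 times in Prmt6KO and 43.8 and 34.1 times in WT. In fragments the same difference was -0.25, and without Prmt6KO replicate 1 it was 0.07 in multiples. For Igf2bp2KO against WT it was 0.02 ± 0.183 (SE, n = 2 each, exact permutation p = 1), with 38.6 and 39.7 times in Igf2bp2KO inside the range of WT. That difference was 0.20 without WT replicate 1 and -0.16 without WT replicate 2.

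Sfi1 stood near the top of all 21631 protein-coding genes in the number of high peaks. A high peak overlapped 38.8% and 5.54% of these genes in Prmt6KO, 0.398% and 0.495% in Igf2bp2KO, and 5.43% and 2.7% in WT. By number of high peaks Sfi1 ranked 26 and 3 in Prmt6KO, 1 and 2 in Igf2bp2KO, and 3 and 2 in WT. In the 5 libraries other than Prmt6KO replicate 1, only the zinc finger genes Zfp978 and Zfp993 held more. By the highest peak the gene ranked 6 and 8 in Prmt6KO, 4 and 5 in Igf2bp2KO, and 5 and 4 in WT. A fixed tiling by 100 kb gave the tile that starts at chr11:3100000 the ranks 18 and 7 in Prmt6KO, 6 and 5 in Igf2bp2KO, and 6 and 3 in WT among 25727 tiles.

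The genes most like Sfi1 were sought by their number of high peaks relative to the mean density of each list, taken over the 6 libraries as log2 values. The nearest by Euclidean distance was Zfp978 on chromosome 4, a zinc finger gene, at a distance of 1.12. It held 98 and 63 high peaks in Prmt6KO, 29 and 36 in Igf2bp2KO, and 64 and 60 in WT, on 267.146 kb. Gm21119 on chromosome 8 followed at 1.79, with 18 and 18 high peaks in Prmt6KO, 13 and 20 in Igf2bp2KO, and 18 and 17 in WT on 32.346 kb. The next were 4930467E23Rik at 2.24, Gm5373 at 2.52 and 9530057J20Rik at 2.72 on chromosome 8, Gm38510 at 2.76 on chromosome 1, Zfp600 at 2.91 on chromosome 4, and Gm7592 at 3.42 on chromosome 1. Sfi1 had the higher summit than each of these 8 genes in every library. The highest of theirs was 23.1 times the background, in Zfp600 in Prmt6KO replicate 1, where Sfi1 reached 61.1 times. No other centriole gene and no gene of chromosome 11 was among the 8.

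Peaks of different libraries in Sfi1 overlapped to a large extent. Position itself was not used to choose the gene, but number, spacing and width were, and these bear on the overlap. The shares are therefore a description and no support apart from the choice. Of the peaks in Sfi1, 88.4% of those in Prmt6KO replicate 1 overlapped a peak of replicate 2 and 89.7% the other way, where 11.5% and 21.6% did over the whole lists. In Igf2bp2KO the shares were 71.9% and 85.2%, where 56.2% and 43.7% did over the whole lists, and in WT 82.9% and 97.4%, where 6.06% and 7.34% did. Between genotypes the shares depended on the length of the list that was searched. All 32 and 27 Igf2bp2KO peaks in the gene overlapped a peak of each Prmt6KO library, and 30 of the 32 and all 27 overlapped a peak of WT replicate 2. Of the 43 and 39 Prmt6KO peaks, 35 and 35 overlapped a peak of WT replicate 1, and of the 41 WT replicate 1 peaks, 40 overlapped a peak of Prmt6KO replicate 1. An overlap means at least 1 shared base, and a gene that is mostly covered by peaks gives overlaps more readily than a sparse one.

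High peaks of the 6 libraries were merged where they overlapped, which gave 39 regions in Sfi1 and its flanks, 28 of them touching the gene. A region was high in at least 4 libraries in 24 cases, 21 of them in Sfi1, where 0.898% of the 68744 merged regions of the genome were. It was high in all 6 libraries in 17 cases, 15 of them in Sfi1, where 0.359% were genome-wide. Sfi1 was chosen on the number and height of its peaks in these lists, so its recurrent regions are a description. Prmt6KO replicate 1 alone gave 59252 high peaks to the merged set, so the genome-wide shares are no like reference. No region in the rest of the window was high in 4 libraries or more, and chromosome 11 as a whole had 26. The 5 narrowest of the 17 regions, each under 1 kb, had their summits within 102 to 219 bp of each other in the 6 libraries, with a median of 129 bp. The width of a region limits that range. In the wider regions it ran from 44 bp to 4726 bp, the latter in the widest region.

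The widest of these regions was singled out after its values were seen. It spanned 16335 bp in the upper part of Sfi1 (chr11:3183729-3200063), was the third widest merged region on chromosomes 1 to 19 and X, and contained the pseudogene Fau-ps2. Its upper end lay between 3199977 and 3200063 in all 6 libraries, a range of 86 bp. Its lower end lay between 3183729 and 3184231, a range of 502 bp. The block was nearly gapless, since peaks covered 99.2% and 100% of it between its own ends in Prmt6KO, 96.4% and 95.4% in Igf2bp2KO, and 98.9% and 97.8% in WT. It was called as 2 peaks and 1 peak in Prmt6KO, 3 and 4 peaks in Igf2bp2KO, and 2 and 2 peaks in WT. A break in its upper part recurred in 5 libraries, and was 137 bp long in Prmt6KO replicate 1, 243 and 313 bp in Igf2bp2KO, and 176 and 362 bp in WT, while Prmt6KO replicate 2 ran through it. The widest single peak was the second widest of its list in each library, with 13421 and 15952 bp in Prmt6KO, 6497 and 6442 bp in Igf2bp2KO, and 13372 and 13275 bp in WT.

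Above the block the signal ended abruptly. The upper end of the block lay 3284 to 3370 bp inside Sfi1 and 2280 to 2366 bp before Eif4enif1, which encodes a transport factor of the cap-binding protein eIF4E and overlaps the end of Sfi1. The next peak in Prmt6KO began 0.435 and 4.375 kb further on with 3 and 5 fragments, and in WT 3.786 and 5.501 kb further on with 7 and 7 fragments. In Igf2bp2KO the next peak lay 85767.9 and 8209.4 kb away, far outside the window. The block made up 35.6% and 35.6% of the gene's covered length in Prmt6KO, 55.5% and 59.2% in Igf2bp2KO, and 38.3% and 42.5% in WT.

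Of the 5 highest peaks of each library in the gene and its flanks, the block gave 2 and 1 in Prmt6KO, 3 and 4 in Igf2bp2KO, and 2 and 2 in WT. The remaining recurrent regions were lower and spread through the rest of the gene. A tall one was chr11:3140376-3143649, which also gave 1 of the 5 highest peaks in every library, with 28 and 28 fragments in Prmt6KO, 37 and 22 in Igf2bp2KO, and 32 and 28 in WT. Another was chr11:3160580-3163929, with 27 and 30 fragments in Prmt6KO, 29 and 22 in Igf2bp2KO, and 39 and 24 in WT. In both regions replicate 1 of Igf2bp2KO and of WT was above replicate 2, the genotypes overlapped, and which of the 2 regions was the taller differed between libraries. At the lower end of the gene, chr11:3132018-3132662 had 22 and 20 fragments in Prmt6KO, 23 and 14 in Igf2bp2KO, and 16 and 19 in WT, the single one of the 17 regions in which both Prmt6KO libraries had more fragments than both WT libraries. The replicates of a genotype could differ as much as the genotypes, as in chr11:3153606-3155096 with 12 and 17 fragments in Prmt6KO, 26 and 17 in Igf2bp2KO, and 29 and 14 in WT.

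Whether the recurrent regions were higher in a knockout depended on the scale. In multiples of the background, both Prmt6KO libraries exceeded both WT libraries in 6 of the 17 regions and were below them in 0, where 40% and 3.91% did among the 230 such regions elsewhere in the genome. In fragments they exceeded both WT libraries in 1 region and were below them in 5, where 2.61% and 33.5% did elsewhere. The median log2 difference of Prmt6KO against WT was 0.35 in multiples and -0.27 in fragments at Sfi1, beside 0.33 and -0.30 in the other 230 regions. The values at Sfi1 thus lay close to those of other recurrent regions on both scales. For Igf2bp2KO against WT, both libraries were higher in 1 region and lower in 3 in multiples, where 22.6% and 8.7% of the other regions were, and higher in 1 and lower in 3 in fragments, where 14.8% and 10% were. Its median log2 difference was -0.05 in multiples and -0.11 in fragments, beside 0.02 and -0.04 elsewhere.

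**Figure D4:**
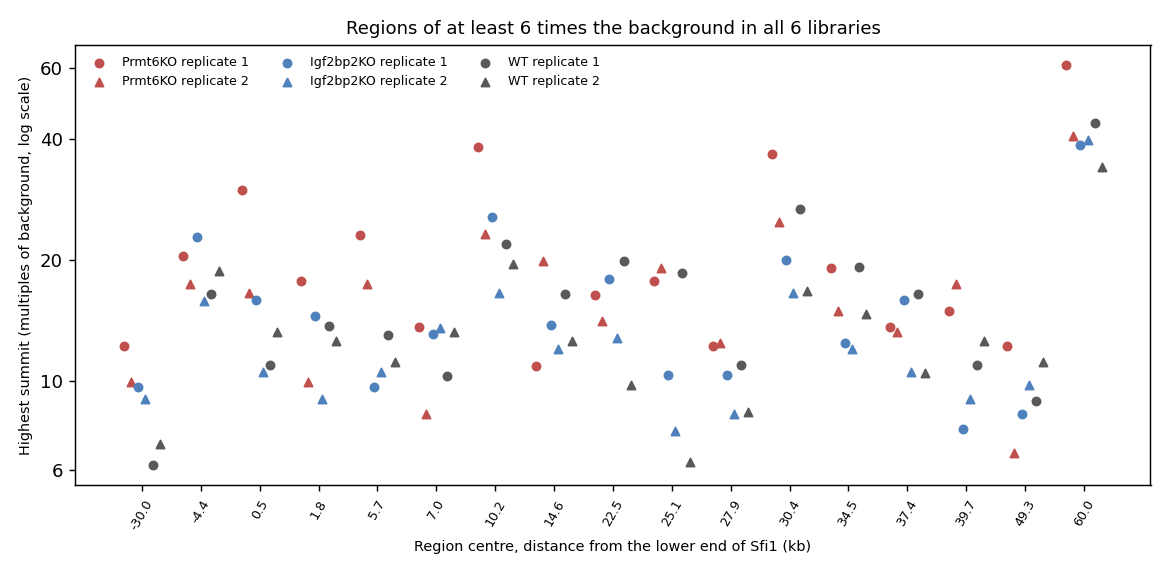
Heights of the 17 regions in Sfi1 and its flanks that were high in all 6 libraries. The horizontal axis orders the regions by the distance of their centre from the lower end of Sfi1 in kb, the vertical axis is the highest summit in multiples of the background on a log scale, and each point is a library. The block centred 60.05 kb into the gene stands above the other 16 regions in every library, and points of the 3 genotypes overlap in most regions.

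The order of the heights over the 17 regions was shared in part between libraries. Spearman's rho between pairs of libraries ran from 0.464 to 0.806 over the 15 pairs, with a median of 0.635. Without the block it ran from 0.355 to 0.766. Replicates of a genotype gave 0.635 in Prmt6KO, 0.775 in Igf2bp2KO and 0.464 in WT, the lowest of all pairs. The highest was between genotypes, for Igf2bp2KO replicate 2 and WT replicate 2. Replicates were thus not always more alike than libraries of different genotypes. These values describe regions of 1 gene that share the width and sequence of each region, and they carry no test.

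Beside the gene, high peaks shared by all 6 libraries were found below it and not above it. The lower flank held 13 and 10 peaks in Prmt6KO, 5 and 5 in Igf2bp2KO, and 8 and 6 in WT. Its highest summit, with the values given above, lay in Pisd-ps1, a transcribed pseudogene of the phosphatidylserine decarboxylase gene Pisd that overlaps the lower end of Sfi1. Pisd-ps1 had 3 and 3 high peaks in Prmt6KO, 3 and 3 in Igf2bp2KO, and 3 and 2 in WT. A further region that was high in all 6 libraries, chr11:3101049-3102658, lay in no RefSeq gene and had 9 and 12 fragments in Prmt6KO, 14 and 12 in Igf2bp2KO, and 9 and 10 in WT. Below chr11:3100126, which lies 31.724 kb below Sfi1, no list held a peak on chromosome 11. Thus 68.276 kb of the lower flank were without a listed peak in all 6 libraries. Whether reads can be placed in that stretch was not examined, so its lack of peaks is no measure of the mark. Densities over the flanks and the window count its full length. On 18 of the other 19 chromosomes the lowest peak began at a lower coordinate.

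The upper flank held 43 and 17 peaks in Prmt6KO, 0 and 0 in Igf2bp2KO, and 8 and 3 in WT, with summits of at most 7 and 6 fragments in Prmt6KO and 9 and 7 in WT. None of its 6 high regions was high in more than 1 library. Eif4enif1 held 14 and 11 peaks in Prmt6KO, 0 and 0 in Igf2bp2KO, and 4 and 1 in WT, of which a single one was high, in Prmt6KO replicate 1. Drg1, a gene for a GTP-binding protein, had 12 and 2 peaks in Prmt6KO, 0 and 0 in Igf2bp2KO, and 3 and 0 in WT. Patz1, a zinc finger transcription factor gene, had 9 and 2 in Prmt6KO, 0 and 0 in Igf2bp2KO, and 1 and 1 in WT. Gm51877, at the upper end of Sfi1, held no peak in any library. At the outer limit of the upper flank, the peaks just inside had 3 to 6 fragments and those just outside 3 to 6 fragments in the Prmt6KO and WT libraries, so the choice of 100 kb cut through no high peak.

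Inside Sfi1, the long non-coding RNA gene Gm33862 lay under 2 and 2 high peaks in Prmt6KO, 3 and 3 in Igf2bp2KO, and 2 and 3 in WT, of up to 17 and 21 fragments in Prmt6KO, 19 and 18 in Igf2bp2KO, and 19 and 19 in WT. The pseudogene Gm11400 had 1 and 1 high peaks in Prmt6KO, 0 and 0 in Igf2bp2KO, and 1 and 1 in WT, of 6 and 8 fragments in Prmt6KO and 9 and 11 in WT. Those heights are near the lowest summit that the Igf2bp2KO lists hold, 8 and 7 fragments, so that a peak of this size could be missing there through the start of the list. Pseudogenes share sequence with their parent genes, and the sources used here do not say how reads with several matches were placed. The parent gene Pisd on chromosome 5 had no high peak outside Prmt6KO replicate 1, with summits of at most 6 and 6 fragments in Prmt6KO, 0 and 0 in Igf2bp2KO, and 8 and 7 in WT. The related pseudogene Pisd-ps2 on chromosome 17 reached 22 and 24 fragments in Prmt6KO, 35 and 28 in Igf2bp2KO, and 29 and 28 in WT. Both Pisd and Pisd-ps2 were looked up after the values of Pisd-ps1 were seen, and the part of shared sequence in these heights was not tested.

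A pair of promoter windows is shown, one from the lower part of Sfi1 that lies between or under its peaks and one beyond the upper end of the block. RefSeq windows of 300 bases (250 before a start and 50 after it, GRCm38.p6, the build mm10) were found for 4 of the 9 genes in or near Sfi1, namely Gm33862, Gm51877, Eif4enif1 and Patz1. The window of Gm33862 is chr11:3136826-3137125 on the plus strand and the lowest of the 4 of Eif4enif1 is chr11:3202103-3202402 on the plus strand, and capitals mark the dinucleotide CG, which reads the same on both strands.
Gm33862: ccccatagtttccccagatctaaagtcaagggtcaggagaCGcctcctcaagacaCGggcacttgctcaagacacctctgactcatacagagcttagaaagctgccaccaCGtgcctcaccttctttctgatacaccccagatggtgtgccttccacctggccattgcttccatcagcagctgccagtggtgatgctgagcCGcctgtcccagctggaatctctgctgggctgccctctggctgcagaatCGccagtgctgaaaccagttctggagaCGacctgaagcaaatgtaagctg
Eif4enif1: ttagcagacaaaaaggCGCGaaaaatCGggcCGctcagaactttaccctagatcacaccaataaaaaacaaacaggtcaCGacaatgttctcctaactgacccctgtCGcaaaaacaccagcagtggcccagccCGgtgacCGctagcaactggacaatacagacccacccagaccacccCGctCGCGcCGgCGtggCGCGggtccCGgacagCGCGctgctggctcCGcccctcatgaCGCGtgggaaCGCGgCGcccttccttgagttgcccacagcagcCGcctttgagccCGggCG
The Gm33862 window held 6 CG and the Eif4enif1 window shown 27, the fewest of the 4 windows of that gene, of which the others held 37, 46 and 42. At least as many CG stood in 56.4% and 15.5% of the 32851 RefSeq windows, whose median was 7 and of which 94.6% held at least 1. A peak of 7 fragments in Prmt6KO replicate 1 overlapped the Gm33862 window, and in the other libraries the nearest peak lay 80 bp away in Prmt6KO replicate 2, 112 and 84 bp away in Igf2bp2KO, and 44 and 38 bp away in WT. No peak of any library touched the Eif4enif1 window shown, from which the nearest was 1420 and 2036 bp away in Prmt6KO, 2126 and 2085 bp in Igf2bp2KO, and 1446 and 2073 bp in WT. The matching count of CG is a description of these windows and shows nothing of what binds there.

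Other genes of centrioles and centrins did not share the pattern. A list of 30 such genes, all of them matched in RefSeq, was examined, and it holds the centrins Cetn1 to Cetn4, the centrin-binding Poc5, the kinase gene Plk4 that starts centriole duplication, the cartwheel gene Sass6, and scaffold genes of the centriole and its surrounding material such as Pcnt, Cep152 and Cdk5rap2. A high peak overlapped 17 and 3 of the 30 genes in Prmt6KO, 0 and 0 in Igf2bp2KO, and 2 and 0 in WT. Those are 56.7% and 10% in Prmt6KO, 0% in both Igf2bp2KO libraries, and 6.67% and 0% in WT, beside 38.8% and 5.54% of all protein-coding genes in Prmt6KO, 0.398% and 0.495% in Igf2bp2KO, and 5.43% and 2.7% in WT. Most of the 17 genes in Prmt6KO replicate 1 had a high peak in that library alone. The exceptions were Spice1, a spindle and centriole gene, with a high peak in 2 libraries, and Cdk5rap2 and Cntln in 3. Cntln, which encodes centlein, a centriole linker protein, had 10 and 1 high peaks in Prmt6KO, 0 and 0 in Igf2bp2KO, and 1 and 0 in WT, with summits of 7 and 9 fragments in Prmt6KO and 9 and 7 in WT. Cdk5rap2, an organizer of the pericentriolar material, had 3 and 1 high peaks in Prmt6KO, 0 and 0 in Igf2bp2KO, and 1 and 0 in WT, and its 12 fragments in WT replicate 1 were the tallest summit of the list in that library. Cep350 had 6 and 0 high peaks in Prmt6KO and none elsewhere, and Rttn 4 and 0. Cenpj, Cep192 and Cep63 had 3 each in Prmt6KO replicate 1, Cep97 and Cep135 had 2 each, and Pcnt, Poc1b, Poc5, Spice1, Cep120, Ninl, Sass6 and Cep295 had 1 each. No member of the list exceeded 9.505 times the background in any library, where Sfi1 reached at least 34.1 times in each.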

How the data were processed

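H3R2me2a ChIP-seq was done on 2 libraries each of Prmt6KO, Igf2bp2KO and WT cells, grouped by their titles. Build mm10 and the tools MACS2 2.1.0, HISAT2, bedtools, Trim Galore and bcl2fastq 2.17 are listed per the submitters' processing notes, while settings, order and the placing of reads with several matches are not given in the sources used here. In the deposited lists, called per library, each peak has its fold enrichment, a ratio of signal to background at the summit. Each also has the authors' -log10 of its p-value and q-value. The summit pileup, a coverage signal per the file headers, stands in a separate table.

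From these, the background of each list was computed here, since fold enrichment equalled the pileup plus 1 over the background plus 1. Pileups were whole in the Prmt6KO and WT lists and were divided by a step of 0.277 and 0.302 in the Igf2bp2KO lists to give fragments (largest deviation from a whole number 0.0205). Chromosomes 1 to 19 and X were used. Total reads per library are not given in the sources used here, so the background stands for depth, and the number of libraries limits the precision. A high peak had a summit of at least 6 times its own background. Counts plus 0.5 and heights were turned into log2 values and compared by exact permutation, two-sided (Python 3.11.15, numpy 2.4.6, pandas 2.3.3, scipy 1.17.1). The counting of peaks over genes and the search for like genes were checked on simulated data, and the permutation test was not. Gene spans and promoter windows came from RefSeq, GRCm38.p6, with no strand, exons or transcripts for the spans.

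Named are Sfi1, all RefSeq genes in it or within 100 kb, the 8 genes nearest to it in their counts of high peaks, and the members of the centriole list with a high peak. Singly described are the highest peaks of each library and regions high in at least 4 libraries. Sfi1, these lists and the tests were chosen with earlier results of these data known. Replicate numbers were taken from the titles, and whether they pair libraries was checked by the correlation of deviations over 17 regions. No sequence of a region high in at least 4 libraries is shown, since no genome of the build was used here. Alternatives were another height, q, fold enrichment, pseudocount, flank, overlap rule, comparison area, a replicate block and leaving out each library.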

Additional observations from a re-analysis of the deposited data

How the results depend on the processing

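Of 50 alternatives to the 4 tested differences, 9 turned the direction, and no p could reach the threshold of 0.05. The cause was not tested. For the number of high peaks, Prmt6KO against WT became 0.0524 with all peaks and 0.11 as covered length, which was added after seeing the data, and Igf2bp2KO against WT became 0.0401 at 10 times the background and 1.67 when divided by all peaks of that height. For the highest summit, Prmt6KO against WT became -0.25 in fragments, and Igf2bp2KO against WT became -0.0397 in fragments and -0.96 by the deposited fold enrichment, which is taken there on scaled-down pileups. Leaving out 1 library at a time gave -0.23 to -0.14 and 0.07 to 0.66 for Prmt6KO, and -0.28 to -0.04 and -0.16 to 0.20 for Igf2bp2KO, for the number and the summit in that order. Counts of high peaks also moved by more than 1.5 times for Igf2bp2KO with a q of 0.05 or below (-2.17) or a fold enrichment of at least 4 (-1.18). For Prmt6KO they did so when divided by all high peaks (-2.52). The q threshold fell at a greater height in Igf2bp2KO than in WT, as given above.

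Deviations of same-numbered libraries over the 17 regions correlated at 0.05 for Prmt6KO and Igf2bp2KO, -0.39 for Prmt6KO and WT, and 0.35 for Igf2bp2KO and WT. Regions of 1 locus with 2 libraries per group cannot decide whether the replicate numbers pair the libraries. With a replicate block the differences stayed at -0.18 and 0.37 for Prmt6KO and -0.16 for Igf2bp2KO (exact permutation p = 0.5 each, the smallest possible), and at 0.02 for Igf2bp2KO (exact permutation p = 1).

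The log2 density of peaks in Sfi1 and flanks over the rest of the window was 0.67 in Prmt6KO, 9.45 in Igf2bp2KO and 2.30 in WT, and it stayed above 0 in all alternatives. In Prmt6KO it was 1.62 for the gene alone, 4.67 for high peaks and 6.29 for a q of 0.05 or below. In Igf2bp2KO it was 11.16 for the gene alone, 10.12 with 50 kb either side, 11.30 against all of chromosome 11, 8.30 against chromosomes 1 to 19 and X, and 7.48 for a q of 0.05 or below. The Igf2bp2KO values against the window rest on the pseudocount of 0.5, since no peak lies there. In WT it was 3.84 for the gene alone, 2.90 with 50 kb, 1.75 against chromosomes 1 to 19 and X, and 7.64 both for high peaks and for q. Leaving out 1 library gave 0.22 to 1.12 in Prmt6KO, 9.35 to 9.56 in Igf2bp2KO and 2.07 to 2.53 in WT. Replicate overlap in Sfi1 was 84.3% in place of 89.1% in Prmt6KO when 50% of the shorter peak had to be shared. Depth limits peaks of few fragments, and peaks under about 5 times the background cannot be compared with Igf2bp2KO. Somewhat higher peaks may also be missing from the Igf2bp2KO lists, which in Sfi1 begin at 6.89 and 6.75 times.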
